A study of Mus musculus with 4 samples.

Results

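The genes described here are 150 mouse genes whose level on 4 microarrays followed the same order of pools as the markers of primordial germ cells, the embryonic founders of eggs and sperm. The order runs from HP1γ-null pool 1, the highest, through wild-type pool 1 and wild-type pool 2 to HP1γ-null pool 2, the lowest. Of 18322 genes with a named probe, 11350 were well above background, by the scanner software's own call, on the 3 pools at the top of that order, and 1327 of these 11350 (11.7%) stood in it. Leaving out the 21 germ cell markers that served as the yardstick, of which 16 were in the order, left 1311 genes, and the 150 with the greatest difference between null pool 1 and null pool 2 are the members. They were chosen by the levels on these same 4 arrays, so everything said of their levels on the 4 pools is a description without a test.

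The study measured RNA from cells sorted for mVenus fluorescence out of genital ridges, the embryonic gonad region, at embryonic day 11.5. The HP1γ-null pools came from HP1γ-/- embryos, made by a gene-trap method in Cbx3, the gene of the heterochromatin protein HP1γ, and the wild-type pools from wild-type embryos. Embryos of both genotypes carried the Blimp1-mVenus transgene, which marks cells that use the promoter of Blimp1 (Prdm1) and is not restricted to germ cells. Each genotype had 2 independent pools of 5 or 6 embryos, with 500 to 3500 sorted cells per embryo, and 4 ng of total RNA per pool went onto 1 one-colour array, all 4 arrays on 1 slide.

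Primordial germ cells keep a network of pluripotency genes running while they migrate to and settle in the genital ridge. They strip most DNA methylation from their genome at about this stage, and a set of germline genes that methylated promoters keep silent elsewhere, among them genes of transposon defence and meiosis, is known to come on in them. The Rhox genes, a cluster of homeobox genes on the X chromosome, and Tex19.1, which restrains retrotransposons, are textbook examples of genes used in germ cells, early embryo and placenta.

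Null pool 2 had the lowest levels of the left-out germ cell markers, apart from Epcam and Tdgf1, although it had the highest share of spots above background. The 11350 genes were required to be well above background on the other 3 pools, and 37 of them (0.326%) were not so on null pool 2. Of these 37, 25 were members, 11 were left-out markers and 1 was Uhmk1, a kinase. The 75th percentile of signal was 125 and 291 intensity units on null pools 1 and 2, against 188 and 219 on wild-type pools 1 and 2, and the share of spots well above background was 53.8% and 63.3% against 53.3% and 56.7%. Levels below are on the log2 scale, with the 75th percentile of each array subtracted, a scale on which 0 is that percentile and 1 unit is a 2-fold difference. Cbx3 itself followed the labels, with levels of -1.24 and -2.78 on null pools 1 and 2 against 5.89 and 5.72 on wild-type pools 1 and 2 for its brighter probe. Prdm1, whose promoter drives the sorting reporter, had levels of 1.48 and 0.65 against 1.24 and 1.27. The left-out germ cell markers differed far more. Dppa3, the germ cell and early embryo factor Stella, had levels of 3.58 and -7.04 on null pools 1 and 2 against 1.60 and -0.26 on wild-type pools 1 and 2, and the pluripotency factor Pou5f1 had 0.92 and -5.33 against -1.73 and -3.34. Epcam, with 1.43 and -3.19 against -2.03 and -3.27, and Tdgf1, with -1.26 and -3.35 against -2.39 and -6.03, were lowest on wild-type pool 2. Tdgf1 was not well above background there. Of the 19 left-out markers above background on the other pools, 11 were not well above background on null pool 2, Dppa3 and Pou5f1 among them, so these defining markers of the labelled cell type were at background on that pool. In RNA from sorted bulk cells, fewer cells of a type and less RNA per cell cannot be told apart.

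The promoters of 5 leading members are shown because these genes differed most between the null pools among members with a RefSeq window and a gene name other than a clone or Gm name, and CpG, the site of DNA methylation, is marked in them. Each window runs from 250 bases before to 50 bases after the RefSeq gene start on assembly GRCm38.p6, 5′ to 3′ on the gene's strand, with every CpG in capitals. Tex19.1 lies at chr11:121145893-121146192 on the plus strand, with 16 CpG. Mageb16 lies at chrX:79671386-79671685 on the minus strand, with 6 CpG. The Syce1 window is chr7:140787805-140788104 on the minus strand, with 14 CpG. For Rhox2a it is chrX:37244742-37245041 on the plus strand, with 8 CpG, and for Ap3b2 chr7:81493876-81494175 on the minus strand, with 7 CpG.
Tex19.1: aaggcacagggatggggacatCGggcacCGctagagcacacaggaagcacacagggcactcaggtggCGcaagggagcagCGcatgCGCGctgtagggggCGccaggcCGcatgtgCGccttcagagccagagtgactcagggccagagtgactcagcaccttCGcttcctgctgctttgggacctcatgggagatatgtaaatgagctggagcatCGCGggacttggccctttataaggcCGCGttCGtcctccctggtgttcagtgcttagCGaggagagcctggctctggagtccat
Mageb16: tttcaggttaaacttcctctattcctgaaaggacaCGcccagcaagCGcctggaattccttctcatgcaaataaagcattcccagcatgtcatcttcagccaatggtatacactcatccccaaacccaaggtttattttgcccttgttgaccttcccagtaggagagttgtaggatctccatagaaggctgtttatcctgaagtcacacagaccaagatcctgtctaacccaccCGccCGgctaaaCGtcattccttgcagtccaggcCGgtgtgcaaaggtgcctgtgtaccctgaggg
Syce1: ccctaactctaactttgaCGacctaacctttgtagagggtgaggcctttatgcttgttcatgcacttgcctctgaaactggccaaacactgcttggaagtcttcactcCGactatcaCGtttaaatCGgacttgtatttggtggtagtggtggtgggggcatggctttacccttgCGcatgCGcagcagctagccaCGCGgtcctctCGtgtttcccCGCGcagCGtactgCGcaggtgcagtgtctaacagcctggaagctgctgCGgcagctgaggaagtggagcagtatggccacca
Rhox2a: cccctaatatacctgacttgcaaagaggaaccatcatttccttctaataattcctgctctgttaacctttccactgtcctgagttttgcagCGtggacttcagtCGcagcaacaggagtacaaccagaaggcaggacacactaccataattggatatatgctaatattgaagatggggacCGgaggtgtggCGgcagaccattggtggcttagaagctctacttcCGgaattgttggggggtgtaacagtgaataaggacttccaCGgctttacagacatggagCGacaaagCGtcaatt
Ap3b2: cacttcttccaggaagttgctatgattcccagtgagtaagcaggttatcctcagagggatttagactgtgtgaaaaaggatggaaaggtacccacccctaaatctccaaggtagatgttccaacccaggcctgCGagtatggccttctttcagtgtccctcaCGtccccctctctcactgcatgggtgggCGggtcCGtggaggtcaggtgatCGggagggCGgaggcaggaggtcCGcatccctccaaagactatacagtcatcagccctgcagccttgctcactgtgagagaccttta

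All 5 genes were among the 9 members with the greatest differences between the null pools. The ratio of observed to expected CpG was 0.575 for Tex19.1, 0.335 for Mageb16, 0.625 for Syce1, 0.484 for Rhox2a and 0.316 for Ap3b2. The octamer ATGCAAAT, the sequence POU factors are known to bind, was found, with both strands searched, in the Mageb16 window and in none of the other 4. RefSeq promoter windows were matched for 122 of the 150 members (81.3%) and for 9112 of the 11350 genes above background (80.3%). Over these, the ratio of observed to expected CpG had a median of 0.646 in members and 0.772 in all genes, and 31 member promoters (25.4%) lay under a ratio of 0.4, against 1330 promoters (14.6%) of all genes.

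Known short motifs were also searched on both strands of these windows. ATGCAAAT was in 5 of 122 member windows (4.10%) and in 137 of 9112 windows of all genes. CCAAT was in 47.5% of member windows and 39.0% of all, TATAAA in 8.20% and 7.29%, and CACGTG in 12.3% and 10.5%. The E2F core TCCCGC was in 36.1% and 36.2%, the GC box GGGCGG in 62.3% and 65.0%, the AP-2 motif GCCNNNGGC, in which N is any base, in 20.5% and 25.4%, and TGACGTCA in 2.46% and 3.39%. None of these 8 motifs holds another of them whole, though the GC-rich ones can overlap in part, and such letters in a window are a description, not a binding site.

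The difference between the null pools spanned 1.38 to 9.74 log2 units over the 150 members, with a median of 1.93, against a median of 0.06 over the 11350 genes. Members ranked 1 to 50 had a median difference of 4.35, those ranked 51 to 100 of 1.93 and those ranked 101 to 150 of 1.5. The 16 left-out markers in the order had a median of 5.86, above the first 50 members. On null pool 2, 9 of these 16 and 23 of the first 50 members were not well above background. Both medians thus rest in part on values at background. An over 8-fold excess of null pool 1 over null pool 2 was seen in 75 of the 11350 genes (0.661%), and 46 of these were members and 15 were left-out markers. Null pool 1 was more than 2-fold above wild-type pool 1 for 48, 20 and 3 members of the 3 successive groups of 50, and wild-type pool 1 was more than 2-fold above wild-type pool 2 for 30, 2 and 0. Wild-type pool 2 was more than 2-fold above null pool 2 for 33, 18 and 13. These 3 steps together make up the difference between the null pools, by which members were ranked. The fall in steps of over 2-fold along the list thus follows from the rule. At the edge of the list the last members inside were Tex19.2 at 1.39, Syce2 at 1.39 and Pip5k1b at 1.38, and the first genes outside were Sgo2a at 1.38, Tefm at 1.38 and Polr3g at 1.37.

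**Figure D1:**
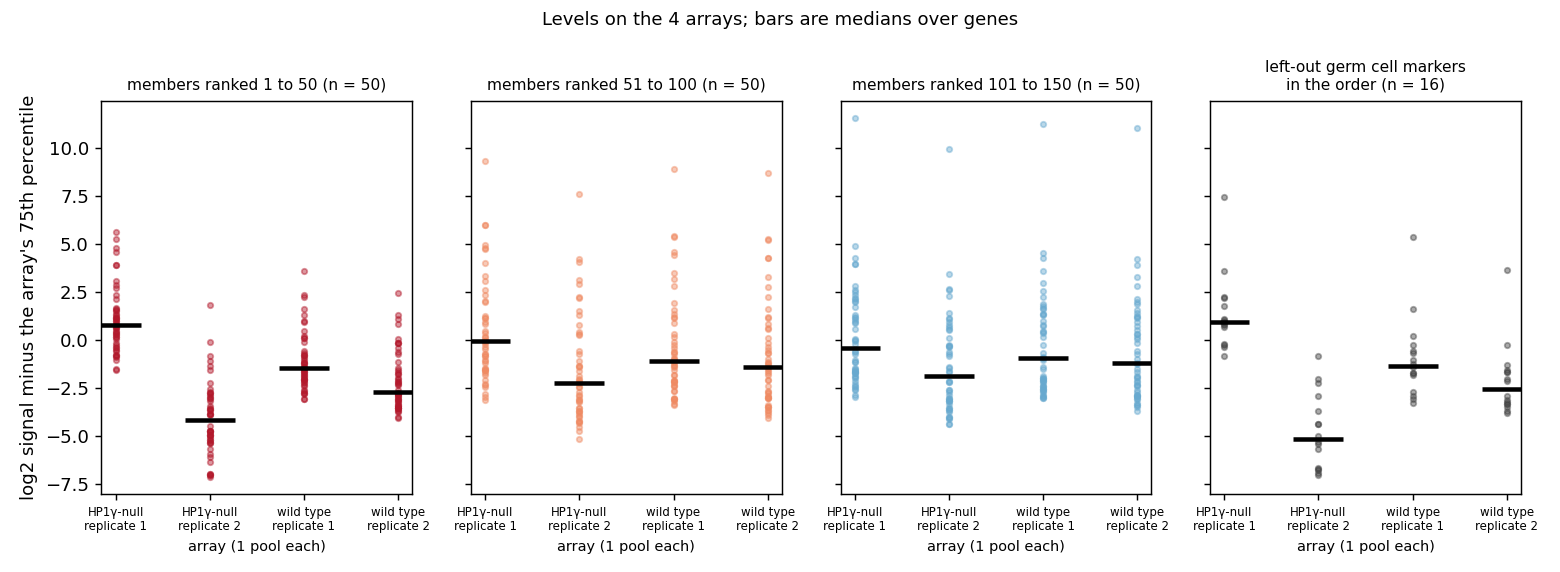
Level of each gene (log2 signal minus the array's 75th percentile, y axis) on the 4 arrays (x axis, 1 pool each), for members ranked 1 to 50, 51 to 100 and 101 to 150 and for the 16 left-out germ cell markers in the order. Points are genes and black bars medians over genes. The gap down to null replicate 2 is deep in the first and last panels and shallow in the panel of members ranked 101 to 150.

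The X-linked reproductive genes headed the list. Rhox9 had levels of 4.79 and -4.94 on null pools 1 and 2 against 2.23 and 0.85 on wild-type pools 1 and 2, and Rhox6 had 3.89 and -5.36 against 0.98 and -0.17. Neither was well above background on null pool 2, and setting null pool 1 against the lowest signal well above background on that array gives at least 811-fold for Rhox9 and at least 433-fold for Rhox6. Every such fold below is bounded in that way where it carries "at least". Rhox2a had levels of 1.60 and -6.13 against -0.97 and -2.90, at least 88.6-fold between the null pools. Rhox5, the first gene of the cluster to be described, stayed above the percentile on all 4 pools, with 5.64 and 1.82 against 3.59 and 2.45, a 14.2-fold difference between null pools 1 and 2.

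Mageb16, of the MAGE family of cancer and testis antigens, had levels of 1.00 and -7.05 on null pools 1 and 2 against -1.67 and -3.43 on wild-type pools 1 and 2, at least 58.3-fold. Trap1a, a tumour antigen gene also used in embryonic and germ cells, had -0.26 and -5.69 against -1.47 and -3.57. Both were not well above background on null pool 2, the lowest pool by a wide margin. Of 6 X-linked reproductive genes on the list drawn up for this group that were above background, 5 were in the order (83.3%, beside 11.7% of all genes), the other being Usp26, a ubiquitin protease with levels of -0.78 and -0.90 against -0.20 and -0.12. In all, 15 members (10%) lie on the X chromosome, against 3.44% of the 11350 genes, and 10 of the 15 rank among the first 50. Rhox2a, Rhox4e, Rhox5, Rhox6 and Rhox9 belong to 1 cluster, and Rhox genes have close copies whose RNA a probe may share. The X-inactivation transcript Xist had levels of 3.25 and 3.64 on null pools 1 and 2 against 4.15 and 3.49, and the Y-linked Eif2s3y had 1.61 and 0.68 against 0.83 and 1.17, so every pool held RNA of both sexes. Under scaling to the spiked-in control RNA, the full order held for 7 of the 8 X-linked reproductive members, which include Rhox4e and the ferritin-like gene Fthl17e. It then held for 5 of the 6 list genes, beside 120 of the 11350 genes.

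Genes that guard the germ line against transposons were spread from the head to the tail of the list. Tex19.1 had levels of 3.91 and -5.25 on null pools 1 and 2 against 1.62 and 0.04 on wild-type pools 1 and 2, at least 440-fold between the null pools. Its close paralogue Tex19.2 had -2.28 and -3.68 against -2.57 and -3.09, and the 2 genes are similar enough that a probe may share their RNA. Fkbp6, a co-chaperone needed to load piRNAs, the small RNAs that guide transposon silencing, had 2.68 and -3.84 against 0.47 and -0.14, a 92.3-fold difference between the null pools on an array where it was still above background.

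Tdrd12, a Tudor-domain helicase of the same pathway, had levels of 1.09 and -3.88 on null pools 1 and 2 against -0.80 and -2.35 on wild-type pools 1 and 2. Gpat2, a mitochondrial outer membrane protein that takes part in making piRNAs, had 0.80 and -2.73 against 0.22 and -0.73, so its wild-type pools lay closer to null pool 1 than those of Tdrd12. Exd1, which partners Tdrd12 in mouse, had -1.73 and -3.57 against -2.37 and -2.69. Of 10 germ granule and piRNA genes above background on their list, 4 were in the order (40.0%, beside 11.7% of all genes), Fkbp6, Tdrd12, Gpat2 and Exd1. The other 6 did not follow it, among them Ddx25, a germ cell helicase, with 5.45 and 4.76 against 5.76 and 5.97. With spiked-in scaling 3 of the 6 members of this group kept the full order. Of the 10 list genes 2 stood in it then, beside 120 of the 11350 genes.

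Meiotic genes were represented by the synaptonemal complex and by cohesin. Syce1, of the central element that joins paired chromosomes, had levels of 0.64 and -7.13 on null pools 1 and 2 against -1.76 and -3.07 on wild-type pools 1 and 2, at least 45.6-fold between the null pools. Syce2, its partner there, had 3.97 and 2.58 against 2.97 and 2.80, a 2.62-fold difference. Syce1 was not well above background on null pool 2 whereas Syce2 was.

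Smc1b, a meiotic cohesin subunit, had levels of 0.31 and -4.82 on null pools 1 and 2 against -0.66 and -1.98 on wild-type pools 1 and 2. Stag3, another subunit, had 0.86 and -0.74 against 0.17 and -0.15, and M1ap, required for meiosis in male mice, had -0.07 and -1.68 against -1.06 and -1.24. Of 10 meiosis genes above background, 5 were in the order (50%, beside 11.7% of all genes), these but for M1ap, which the list did not hold, with Mlh3, a mismatch repair gene outside the top 150. Rec8, a further meiotic cohesin, ran another way, with 1.05 and 1.38 on null pools 1 and 2 against -0.51 and -0.46 on wild-type pools 1 and 2. Stra8, which starts meiosis, had -3.01 and -3.27 against -2.63 and -2.89, all close to background. Under spiked-in scaling 3 of the 5 meiotic members kept the full order. Of the 10 list genes 3 stood in it then, beside 120 of the 11350 genes.

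Pluripotency and early embryo genes made up the largest group of members by role. Fbxo15, an F-box gene that marks embryonic stem cells, had levels of 1.65 and -5.38 on null pools 1 and 2 against -0.60 and -2.21 on wild-type pools 1 and 2. Tdh, threonine dehydrogenase, on which mouse embryonic stem cells depend for one-carbon units, had 5.26 and -1.55 against 2.34 and 1.07, a 113-fold difference between null pools in which it was well above background on both. Khdc1a, a KH-domain gene of oocyte and early embryo, had 0.06 and -7.01 against -2.04 and -3.45.

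Zfp296, a zinc finger gene of the pluripotency network, had levels of 0.85 and -2.97 on null pools 1 and 2 against -1.52 and -2.82 on wild-type pools 1 and 2, so wild-type pool 2 was almost as low as null pool 2. Nr5a2, a nuclear receptor that upholds Pou5f1, had 2.88 and -0.12 against 1.31 and 1.28, and here the wild-type pools were level. Etv5, a target of FGF signalling, had 0.46 and -1.62 against -0.72 and -1.02, and Lefty1, a Nodal antagonist, had -3.12 and -5.19 against -3.18 and -3.81. Cbx7, a Polycomb subunit, had 0.12 and -2.70 against -1.55 and -1.82. Among 33 further pluripotency genes above background, 10 were in the order (30.3%, beside 11.7% of all genes) and 7 of these were members. Tex19.1, Tex19.2 and Trap1a, described above with other groups, are among the 7. The list did not hold Tdh, Khdc1a, Zfp296 or Cbx7. Those in the order but below the top 150 were Klf2, Mycn and Rif1, while Klf4, a reprogramming factor, had 1.52 and 1.59 on null pools 1 and 2 against 2.22 and 2.43. Of the 10 members of the group, 7 kept the full order with spiked-in scaling. Of the 33 list genes 6 stood in it then, beside 120 of the 11350 genes.

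RNA regulators and other germline genes ranked between 14 and 74. Cpeb1, which controls polyadenylation of stored messages in oocytes, had levels of -0.39 and -5.21 on null pools 1 and 2 against -1.43 and -2.84 on wild-type pools 1 and 2. Rbmxl2, a testis RNA-binding protein, had 0.38 and -6.36 against -2.10 and -3.20, and Nlrp4c, an oocyte gene, had 1.12 and -4.75 against -1.43 and -3.25. All 3 were not well above background on null pool 2. Cyct, the testis form of cytochrome c, had 3.07 and -2.90 against 0.09 and -1.15, Sohlh2, a transcription factor of oocytes and spermatogonia, -1.21 and -3.17 against -2.19 and -2.78, and Tex101, a germ cell surface protein, 0.01 and -2.07 against -0.45 and -0.71. Of 24 germ cell fate and survival genes above background, 7 were in the order (29.2%, beside 11.7% of all genes), and Prdm1, Ifitm3 and Elavl2 were not. The full order held for 5 of the 6 members of this group with spiked-in scaling. Of the 24 list genes only 2 stood in it then, beside 120 of the 11350 genes.

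**Figure D2:**
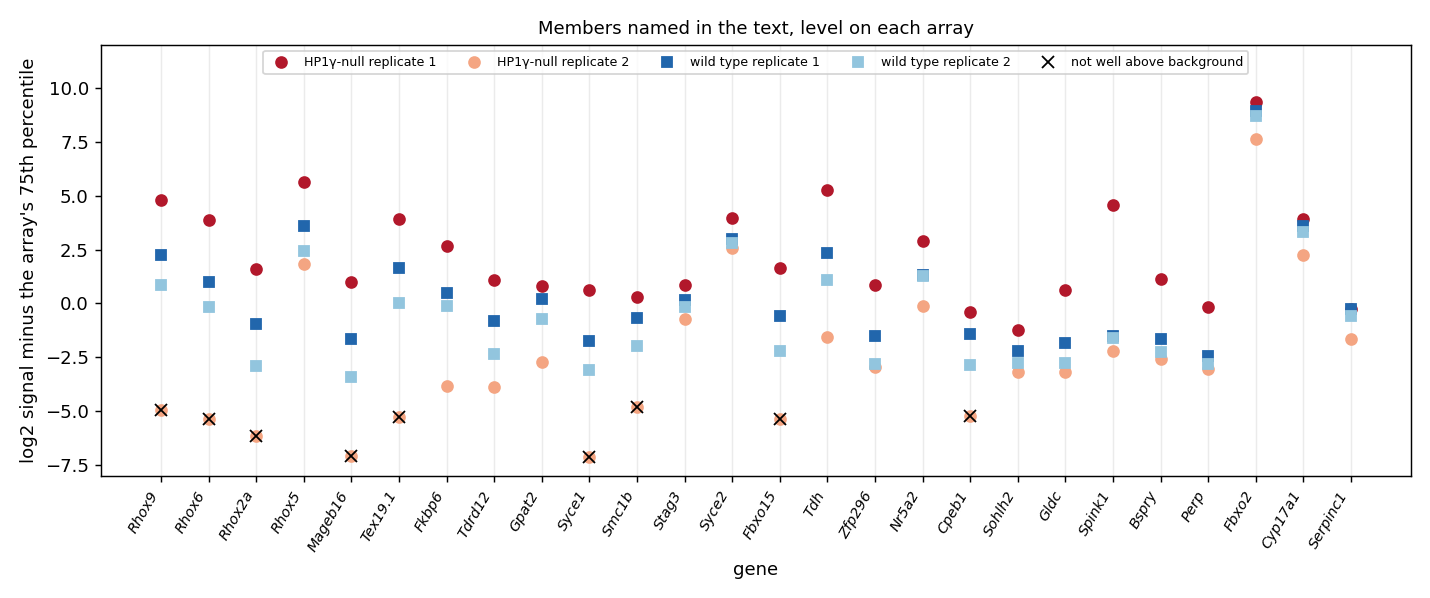
Level (log2 signal minus the array's 75th percentile, y axis) of 26 members (x axis) on HP1γ-null replicates 1 and 2 (circles) and wild-type replicates 1 and 2 (squares). Crosses mark values not well above background, all of them on null replicate 2, and Spink1 shows 1 pool high and the other 3 together.

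Other leading members have no group here. Ap3b2, a vesicle coat subunit best known from neurons, had levels of 1.28 and -5.95 on null pools 1 and 2 against -0.77 and -1.78 on wild-type pools 1 and 2. Rps6kl1, a kinase-like gene, had 0.79 and -5.31 against -1.15 and -2.63, and Gca, which encodes the calcium-binding protein grancalcin, had 0.24 and -4.74 against -2.33 and -3.72. By the rule, these 3 stand in the same order as the germline members. Phlda2, an imprinted gene that limits placental growth, had 0.99 and -3.92 against -1.94 and -2.17, with the wild-type pools close together.

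The 8 metabolic members had a median difference between the null pools of 2.19 log2 units, against 1.93 over all members. Gldc, the decarboxylase of the glycine cleavage system, had levels of 0.64 and -3.17 on null pools 1 and 2 against -1.82 and -2.77 on wild-type pools 1 and 2. Chchd10, a mitochondrial protein, had 4.74 and 2.22 against 3.19 and 2.22, its wild-type pool 2 being 0.05% of the way up from null pool 2. The group also holds Maob, Tigar, Cox7a1, Pdk4, Ahcy and Slc25a33. On the separate list of energy and one-carbon genes, 5 of 34 above background were in the order (14.7%, beside 11.7% of all genes), and Gldc was the only member. With spiked-in scaling 4 of the 8 kept the full order. Of the 34 list genes 1 stood in it then, beside 120 of the 11350 genes.

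Epithelial genes among the members had the wild-type pools nearest to null pool 2 of the 7 role groups, at a median of 14.1% of the way up to null pool 1 for wild-type pool 1 and 2.73% for wild-type pool 2. Spink1, a secreted trypsin inhibitor, had levels of 4.56 and -2.23 on null pools 1 and 2 against -1.52 and -1.59 on wild-type pools 1 and 2, so it was high on null pool 1 alone. Bspry, a gene of epithelial and early embryonic cells, had 1.14 and -2.58 against -1.63 and -2.25, and Perp, a desmosome protein, had -0.15 and -3.02 against -2.42 and -2.79. In each of the 3 the wild-type pools were within 1 unit of each other.

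Pls1, an actin bundler of microvilli, had levels of -0.85 and -4.96 on null pools 1 and 2 against -2.66 and -3.57 on wild-type pools 1 and 2, and Folr1, a folate receptor, had 0.65 and -3.44 against -1.70 and -2.93. Ovol2, a zinc finger gene of epithelia and germ cells, had -2.10 and -3.88 against -3.07 and -3.73, and Epb41l4b, of the cell cortex, had 1.13 and -1.36 against -0.64 and -1.16. Of 13 genes on the list of epithelial junctions and keratins, 2 were in the order (15.4%, beside 11.7% of all genes), Ovol2 and Perp. The keratins Krt8 and Krt18 had another order, 2.61 and 1.09 on null pools 1 and 2 against -2.19 and -2.02 on wild-type pools 1 and 2 for Krt8, and 4.38 and 2.68 against 0.65 and -0.03 for Krt18, both null pools above both wild-type pools. With spiked-in scaling 6 of the 7 epithelial members kept the full order. Of the 13 list genes 2 stood in it then, beside 120 of the 11350 genes. Embryonic epithelia and germ cells share some of these genes, and which cells they came from was not tested.

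The 7 role groups above, drawn up after the values were seen, hold 50 of the 150 members, 30 of them among the first 50. The other 100 were put in no role group, and 32 of them kept the full order with spiked-in scaling. The 5 members whose chosen probe was brightest on null pool 1 were Lars2, a mitochondrial leucyl-tRNA synthetase, Fbxo2, an F-box gene, Arid5b, Rps4l, a ribosomal protein gene, and Rhox5. Further probes for Fbxo2 read far lower there, at -1.57 and -2.20, and the second of these was not in the order. For Arid5b the chosen probe read 6.01 there, and the other probe above background on the upper pools -0.51. Whether the bright probes read these genes' RNA was not tested. Lars2 had levels of 11.54 and 9.96 on null pools 1 and 2 against 11.26 and 11.07 on wild-type pools 1 and 2, and Fbxo2 had 9.34 and 7.62 against 8.90 and 8.69. In both, null pool 2 was low and the other 3 pools lay within 1 unit. Cyp17a1, a steroid-making enzyme, and Serpinc1, antithrombin, showed the same shape, Cyp17a1 with 3.93 and 2.27 against 3.58 and 3.29, and Serpinc1 with -0.24 and -1.64 against -0.25 and -0.58. Spiked-in scaling moved null pool 1 by -0.66 against wild-type pool 1. This is more than its lead in Lars2, Fbxo2, Cyp17a1 and Serpinc1, so these genes did not keep the full order there.

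The rule fixed that both wild-type pools lie between the null pools. It also ranked members by the difference between the null pools, which sets the span on which a position is read. Positions by rank are thus not free of the rule. On the linear signal, wild-type pool 1 lay a median of 35.1% of the way up from null pool 2 to null pool 1 over the 150 members, and wild-type pool 2 18.2%. For wild-type pool 1 the median was 19.3%, 46.5% and 60.7% in members ranked 1 to 50, 51 to 100 and 101 to 150, and 15.9% in the 16 left-out markers. For wild-type pool 2 it was 6.77%, 22.2% and 33.9%, and 5.74% in the markers. The first 50 members, which like the markers had wide differences between the null pools, had wild-type pools placed much as the markers had. Later members had the wild-type pools higher, and the part of the ranking in this was not tested.

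Of the 16 markers, 15 had wild-type pool 1 between 4.12% and 25.4% and wild-type pool 2 between 1.17% and 11.8%. The other was Ddx4, the germ cell helicase also called Vasa, with levels of 0.66 and -6.73 on null pools 1 and 2 against 0.19 and -1.32 on wild-type pools 1 and 2, at 72.0% and 24.9%. Both positions fell within the range of the 15 for 39 of 150 members, of which 33 ranked in the first 50, 4 in the next and 2 in the last. Ddx4 was left out of that range after its value was seen, and ranking bears on positions, so these counts are a description. They were not made over all 1311 genes in the order, whose median positions were 56.6% for wild-type pool 1 and 34.2% for wild-type pool 2. Wild-type pool 1 was more than 50% of the way up for 55 members, of which 1 ranked in the first 50, Gpat2 at 63.9%. Smc1b at 49.7% and Cpeb1 at 47.0% came next to it among the first 50.

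Ddx4 was not alone among later germ cell genes in having wild-type pool 1 high. Dazl, an RNA-binding protein that licenses germ cells for later development, had levels of -2.15 and -5.91 on null pools 1 and 2 against -0.45 and -3.02 on wild-type pools 1 and 2, and Mael, a piRNA factor, had -2.41 and -7.11 against -1.31 and -3.16. Both were left-out markers outside the order because wild-type pool 1 was above null pool 1. Among members, the lowest positions of wild-type pool 1 were those of Spink1 at 0.577%, Bspry at 7.65%, Perp at 8.30%, Phlda2 at 10.1% and Cyct at 11.3%. The highest were those of Serpinc1 at 98.1%, Barhl2, a neural homeobox gene, at 96.6%, Lefty1 at 94.7%, Pip5k1b, a lipid kinase, at 94.0% and the cytokine Il4 at 93.6%.

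For wild-type pool 2, the lowest positions were those of Chchd10, Spink1 at 0.505%, Zfp296 at 0.817%, Tex44, a testis gene, at 0.953% and Bspry at 2.06%. The highest were those of Barhl2 at 91.7%, Zfp217 at 80.4%, the gap junction gene Gjd3 at 77.2%, Spred1, an inhibitor of Ras signalling, at 74.8% and Hydin, a gene of motile cilia, at 71.0%. Across the 150 members the positions of the wild-type pools went together (Spearman's rho 0.854, Pearson's r 0.851). A greater difference between the null pools went with lower positions, with rho -0.661 for wild-type pool 1 and -0.635 for wild-type pool 2. All these measures share the same 4 arrays, both positions share the null values, and genes are not independent replicates, so they are descriptions.

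**Figure D3:**
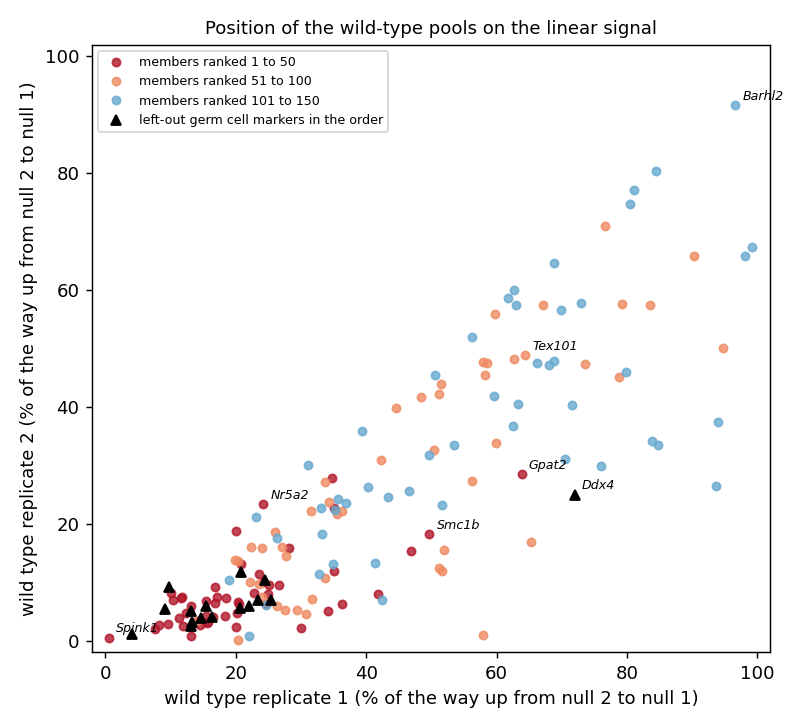
Position of wild-type replicate 2 (y axis) against wild-type replicate 1 (x axis), each as the % of the way up from null replicate 2 to null replicate 1 on the linear signal, for the 150 members by rank and the 16 left-out markers in the order (triangles). Members ranked 1 to 50 crowd at the lower left with the markers, and members ranked 101 to 150 spread to the upper right.

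The wild-type pools differed from each other by less than the null pools, as the rule requires. Wild-type pool 1 was above pool 2 by a median of 0.39 log2 units over the members, and by 1.15, 0.32 and 0.28 in the 3 successive groups of 50. Over the markers in the order that median was 1.32, and over all 11350 genes -0.02. Setting each member's null pool 1 minus null pool 2 difference beside its wild-type pool 1 minus wild-type pool 2 difference gave r = 0.713 and rho = 0.613 over the 150 members, which the rule had limited to positive values of both. Over the 11350 genes r was 0.150 and rho 0.0867, and over the 11181 that are neither members nor left-out markers r was -0.0376 and rho 0.0532, all on the same 4 arrays.

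**Figure D4:**
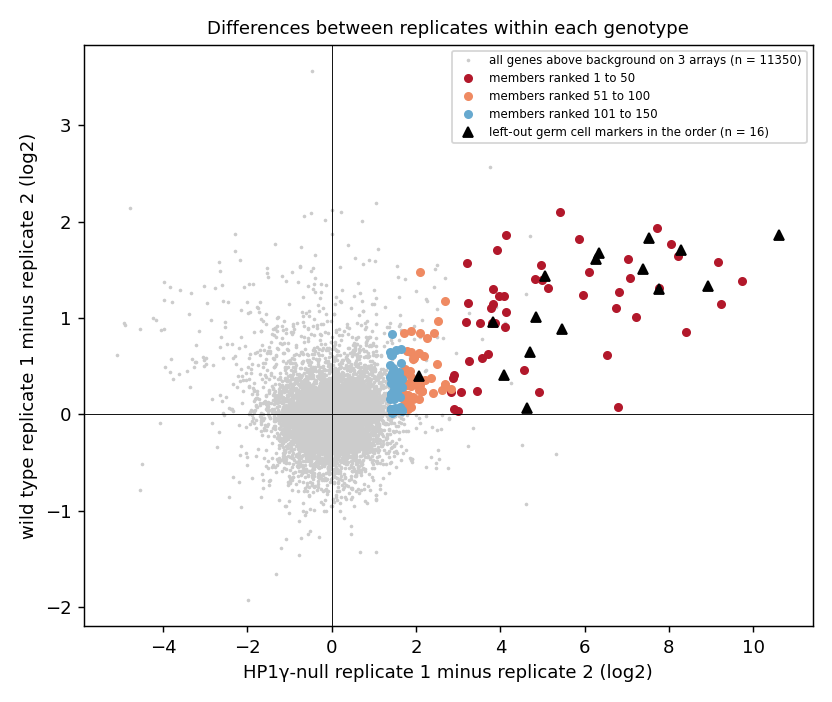
Wild-type replicate 1 minus replicate 2 (y axis, log2) against HP1γ-null replicate 1 minus replicate 2 (x axis, log2) for the 11350 genes above background on 3 arrays (grey), the members by rank (coloured) and the left-out markers in the order (triangles). Members sit at the upper right by the rule, and the grey cloud shows little tilt.

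No member was called between the genotypes, on a test that uses the arrays that chose the members and is given as a description of them. By the rule, the null pools of every member lie on either side of both wild-type pools, far apart. The lack of calls and the wider spread of the null pools thus follow from the rule and show nothing of a genotype effect. In limma on the 4 arrays, 2 of 22440 probes (0.00891%) passed an adjusted p of 0.05, and 0 of the 150 members did, 0 also at an unadjusted p of 0.05, with a smallest adjusted p of 0.851. The null minus wild-type difference had a median of 0.01 and ran from -1.61 to 2.72, with 77 members higher and 73 lower in the null mean. The SD between the null pools had a median of 1.37 log2 units over members, against 0.27 between the wild-type pools.

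Other probes for the same genes offered a partly separate reading of the same RNA. Of 66 further probes for 52 members, 34, for 30 members, were above background on the 3 upper pools, and 16 of these 34 (47.1%) were in the order, against 10.9% of such probes of all genes. Null pool 1 was above null pool 2 on 29 of 34, against 3116 of 5151 such probes of all genes. The median difference was 0.87, against 0.16 for such probes of all genes and 1.60 for the chosen probes. The second Fkbp6 probe had levels of -0.12 and -5.10 on null pools 1 and 2 against -2.16 and -2.95 on wild-type pools 1 and 2, that of Phlda2 -0.67 and -6.03 against -3.50 and -3.97, and that of Mageb16 -1.44 and -4.77 against -2.75 and -3.80. The head of the list thus read alike on both probes for these 3. Toward the tail, null pool 2 was the higher of the null pools on another probe for Arid5b, Fam13c, Fntb, Trim45 and Stk38l, by 0.45, 0.26, 0.69, 0.46 and 0.09 log2 units.

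Markers of other cell types differed between the pools as well. Genes of endothelium (0 of 12 above background), leukocytes (0 of 10), erythroid cells (0 of 4), gonadal soma (0 of 3) and stroma (0 of 8) were not in the order. Of the genes of mesonephros and mesothelium 1 of 3 was, the member Lhx1. The share over all genes was 11.7%, at which lists this small can hold none or 1, so these counts say little. The summed signal of the 8 stromal markers, in multiples of the 75th percentile, was 11.1 and 84.3 on null pools 1 and 2 against 24.1 and 9.97 on wild-type pools 1 and 2. Col1a1, the collagen of stroma, had levels of 0.53 and 4.13 against 2.28 and 0.98, so null pool 2 was the high one, as for 7 of the 8. Postn, the periostin gene, ran the other way, with 1.94 and -1.96 against -1.67 and -2.78. The 3 of 11 gonadal somatic markers above background, Wt1, Amhr2 and Wnt6, summed to 3.80 and 8.10 against 2.82 and 1.35.

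Endothelial and leukocyte markers were well above background on every pool. The 12 endothelial genes summed to 192 and 245 on null pools 1 and 2 against 336 and 376 on wild-type pools 1 and 2, and the 10 leukocyte genes to 327 and 275 against 321 and 371. The 19 left-out germ cell markers above background summed to 218 and 1.59 against 51.6 and 16.4. The summed germ cell markers were thus lowest, and the summed stromal (Postn apart) and gonadal somatic markers highest, on the pool where the members were lowest, and the part of other cells in the members' levels was not tested. Replication and mitosis genes were in the order for 9 of 31 (29.0%), none a member, and DNA methylation and chromatin genes for 6 of 36 (16.7%), with Cbx7 the member, beside 11.7% of all genes. With spiked-in scaling 0 of the 31 and 0 of the 36 stood in it, beside 120 of the 11350 genes.

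**Figure D5:**
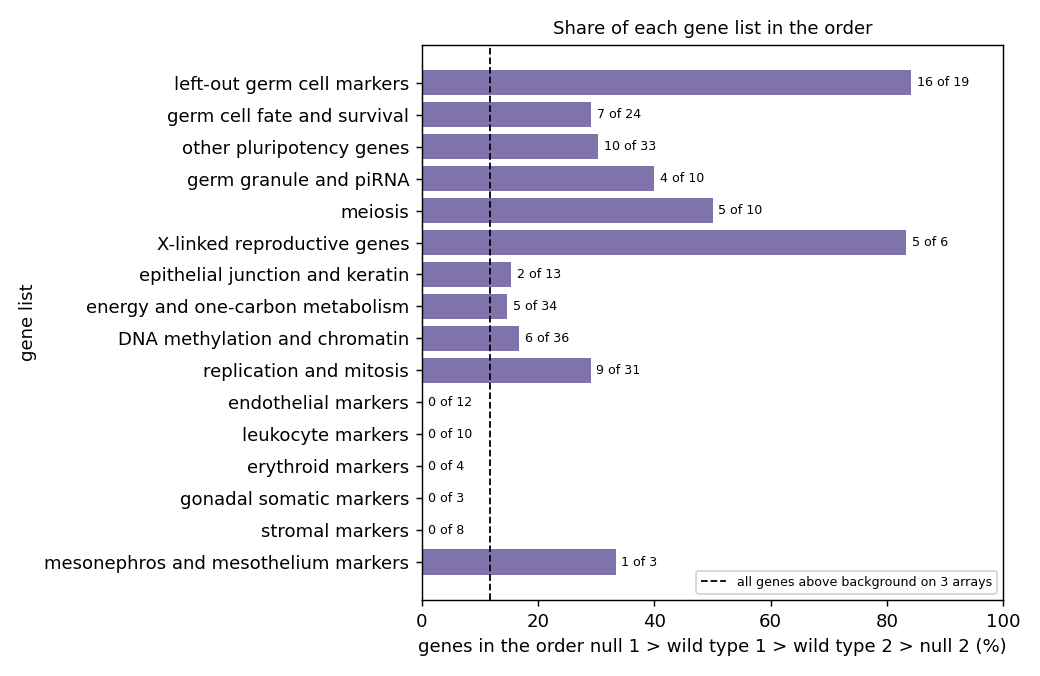
Share of each gene list, among its genes above background on 3 arrays, that stood in the order null 1 > wild type 1 > wild type 2 > null 2 (x axis, %), by list (y axis), with counts beside the bars. The dashed line is the 11.7% of all genes. The left-out markers, 16 of 19, and the X-linked reproductive genes, 5 of 6, reach furthest. The order is that of the markers, so their bar is no separate result.

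The 75th percentile subtracted was 125 on null pool 1, 188 and 219 on wild-type pools 1 and 2, and 291 on null pool 2. These percentiles run in the reverse of the order. A probe with the same signal on every array before scaling would therefore stand in the order after it. How far this placed members in the order, whether dim or bright, was not tested. The order itself depended on how arrays were scaled. It was the most frequent of the 24 possible orders, with 1327 genes, ahead of null 1 > wild type 2 > wild type 1 > null 2 with 971 (8.56%) and null 2 > wild type 2 > wild type 1 > null 1 with 922 (8.12%). Scaling to 7 spiked-in control probes moved null pools 1 and 2 by -0.66 and -0.13 log2 units and wild-type pool 2 by 0.30, all against wild-type pool 1, and then 120 genes stood in the order. Of the members, 67 kept it, 42 in the first 50, 18 in the next and 7 in the last. Null pool 1 stayed above wild-type pool 1 for 49, 27 and 18 of 50. The shift between the null pools is smaller than the smallest difference among the members, and wild-type pool 2 moves up against null pool 2, so neither comparison with null pool 2 could turn round in any member.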

How the data were processed

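RNA of 4 pools, 2 HP1γ-null and 2 wild type as grouped by the labels, was read on Agilent one-colour arrays. Per the file headers, the deposited intensity values were made by Agilent Feature Extraction 10.7.3.1, with background subtraction within each array and no scaling between arrays. Their table of values, also deposited, differs from that signal by at most 0.50%. Amplification from 4 ng of RNA can add noise to dim probes, and the number of arrays limits the precision.

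Processed signals were turned into log2 values here, less the 75th percentile of 43379 spots of each array. Control spots and spots marked as outliers (83 to 104 an array) were dropped, so that 21 of 41174 probes were lost, and 1 saturated spot per array was kept. Accessions matched to RefSeq symbols named 26877 probes of 18322 genes, and the probe with the highest mean stood for a gene. Promoter windows came from RefSeq on GRCm38.p6.

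The test between genotypes was limma 3.58.1 under R 4.3.3 (lmFit, eBayes, two-sided, Benjamini-Hochberg over 22440 probes above background on both arrays of a genotype), tested on simulated data. Python 3.11.15 with pandas 2.3.3 did the other steps. Alternatives were other scalings, background correction, filters, probe choice and a replicate block. Same-numbered pools deviated together by a correlation of 0.0675, and the labels call the pools independent, so the numbers were not taken to pair them.

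The members, gene lists and tests were chosen with earlier results of these data known. Named were members on a list, the 20 leading, the brightest 5, those at either end of the wild-type positions and the edge of the list, passing over clone, RIKEN, Gm and LOC names. Members of the role groups outside that rule, and list genes named for another order, were chosen after their values were seen.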

Additional observations from a re-analysis of the deposited data

How the results depend on the processing

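The number of genes in the order stayed between 1209 and 1427 under quantile normalization, centring on the median of probes above background, normexp background correction, the authors' table, a filter on all 4 arrays and the mean of a gene's probes, against 1327. Under those settings 111 to 150 of the 150 members stayed in the top list. Spiked-in control scaling gave 120 genes in the order, 67 members kept in the list and 67 in the order, and positions of 72.8% for wild-type pool 1 and 61.7% for wild-type pool 2, against 35.1% and 18.2%. The positions otherwise lay at 34.5% to 43.1% and 17.8% to 23.2%. The cause of these shifts was not tested.

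The number of probes called by limma, 2 (1685 at an unadjusted p of 0.05), became 133 with spiked-in scaling, 12 with trend and robust fitting, 1 of probes above background on all 4 arrays and 0 of all probes (1474 unadjusted). Leaving out 1 pool in turn gave 0 to 0 calls (607 to 5643 unadjusted), with the lone pool taken to vary like the other genotype's. With the replicate number as a block it was 13, although 2 pairs with a correlation of 0.0675 do not pair the pools. The order and positions need all 4 arrays, so neither a block nor leaving out a pool gives a value for them, and 1 slide allows no slide block. Normexp used the median spot signal, since the mean signal is not used here. Signal near background limits the dimmest members, 25 of which have only a bound on null pool 2.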
